A study of Mus musculus with 3 samples.

Results

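The circadian clock genes and the PAR bZIP genes that the clock drives were followed across the livers of a mouse model of acute inflammatory liver injury. The 10 genes were Arntl and Clock (activators), Per1, Per2, Cry1 and Nr1d2 (repressors), and Dbp, Tef, Hlf and Usp2 (output genes). They were taken by gene symbol or synonym from the array annotation, which gave them 11 of 23473 table rows, and all 10 had a value on every array, as did 10179 named genes in all. Each of 3 arrays with 2 channels compared the liver of female C57BL/6 mice with liver of untreated wild-type (WT) females of that strain, the common reference. The livers came from TMX-/- mice given LPS/GalN, from WT mice given LPS/GalN, and from untreated TMX-/- mice. LPS/GalN was 3 ng lipopolysaccharide with 10 mg D-galactosamine injected into the peritoneum, and liver was collected 24 h later. TMX is a thioredoxin-related membrane protein of the endoplasmic reticulum. The labels do not give the allele behind TMX-/-, the number of mice or pooling behind a channel, the age of the mice, or the time of day at which liver was taken. There was 1 array per group, so no difference below could be tested against variation between mice, and no p-value is given.

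In the mammalian clock, ARNTL (BMAL1) and CLOCK form a dimer that binds E-box sequences and turns on the Per, Cry and Nr1d genes. PER and CRY proteins then block the dimer, and REV-ERB proteins such as NR1D2 repress Arntl through ROR elements, which closes the loop over a day. The same dimer drives Dbp, and DBP, TEF and HLF are transcription factors with a proline and acidic amino acid rich (PAR) domain and a basic leucine zipper (bZIP) that bind D-box sequences of detoxification genes in liver. In healthy liver, Arntl and Dbp peak at nearly opposite times of day.

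All values are log2 ratios of a liver to untreated WT liver, which therefore stands at 0. The arrays were centred on the median gene, and genes whose log2 ratio reached 1 in size, a 2-fold difference, were counted. Tmx1, the gene of the TMX protein, stood at -3.88 in TMX-/- LPS/GalN liver, 0.59 in WT LPS/GalN liver and -2.96 in untreated TMX-/- liver. This is the basis for reading the ratios as liver over reference. That direction is likely but is not stated in the labels, and with the other numerator every higher would read lower. The differences between 2 probes of the same gene gave the only error at hand. Taken over 81 genes, this SD for one probe came to 0.76 on the TMX-/- LPS/GalN array, 0.42 on the WT LPS/GalN array and 0.42 on the untreated TMX-/- array, and 9 of the 10 clock genes rested on 1 probe. The SD over all 10179 genes was 1.04, 0.48 and 0.40 in the same order, so larger ratios were common on the TMX-/- LPS/GalN array.

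The promoters of Arntl, Cry1, Dbp, Tef and Usp2, all of them 2-fold different in TMX-/- LPS/GalN liver, and of Hlf, the PAR bZIP gene that was not, follow as listed by RefSeq for GRCm38.p6, to set the known clock elements beside the values. Per2, also 2-fold different there, had no window in the promoter listing used. Each window runs from 250 bases before to 50 bases after a transcript start, 5′ to 3′ on the gene's strand. Capitals mark any match on either strand to the E-box CACGTG, the D-box TTATGTAA or TTACGTAA, the ROR element half-site TAGGTCA or TGGGTCA, and the cyclic AMP element TGACGTCA. No matches of different motifs overlapped. For Arntl and Tef the second of 2 windows is shown, which for Arntl is the one with a match.
Arntl, chr7:113207261-113207560, plus strand: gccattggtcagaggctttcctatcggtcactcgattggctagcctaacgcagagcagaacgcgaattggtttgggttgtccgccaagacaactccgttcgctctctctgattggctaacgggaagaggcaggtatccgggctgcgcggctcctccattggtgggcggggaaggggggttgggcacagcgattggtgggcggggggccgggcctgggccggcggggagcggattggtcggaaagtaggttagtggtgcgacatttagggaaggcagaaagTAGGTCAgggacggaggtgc
Cry1, chr10:85185005-85185304, minus strand: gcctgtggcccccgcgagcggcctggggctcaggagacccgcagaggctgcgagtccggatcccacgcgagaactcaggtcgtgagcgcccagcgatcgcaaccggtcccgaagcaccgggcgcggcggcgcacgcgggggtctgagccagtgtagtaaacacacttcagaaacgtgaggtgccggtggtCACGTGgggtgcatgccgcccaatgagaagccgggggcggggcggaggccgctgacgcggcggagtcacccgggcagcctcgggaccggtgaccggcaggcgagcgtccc
Dbp, chr7:45704997-45705296, plus strand: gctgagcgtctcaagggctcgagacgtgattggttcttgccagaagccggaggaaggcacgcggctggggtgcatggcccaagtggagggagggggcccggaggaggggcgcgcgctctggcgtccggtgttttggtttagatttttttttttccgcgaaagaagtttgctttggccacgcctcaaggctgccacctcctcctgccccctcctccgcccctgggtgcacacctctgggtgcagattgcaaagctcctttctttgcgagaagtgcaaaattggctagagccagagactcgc
Tef, chr15:81811164-81811463, plus strand: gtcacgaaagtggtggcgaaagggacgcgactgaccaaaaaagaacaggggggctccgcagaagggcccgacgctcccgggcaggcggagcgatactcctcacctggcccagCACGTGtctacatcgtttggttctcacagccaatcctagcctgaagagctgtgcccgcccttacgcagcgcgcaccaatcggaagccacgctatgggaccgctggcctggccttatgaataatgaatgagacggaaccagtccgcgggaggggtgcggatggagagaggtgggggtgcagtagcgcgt
Hlf, chr11:90390868-90391167, minus strand: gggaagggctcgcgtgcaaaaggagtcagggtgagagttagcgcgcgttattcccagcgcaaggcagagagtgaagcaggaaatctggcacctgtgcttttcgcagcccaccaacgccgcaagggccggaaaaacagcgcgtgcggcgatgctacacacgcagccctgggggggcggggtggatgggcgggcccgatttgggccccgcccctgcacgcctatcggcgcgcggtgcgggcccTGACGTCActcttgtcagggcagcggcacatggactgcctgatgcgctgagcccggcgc
Usp2, chr9:44084670-44084969, plus strand: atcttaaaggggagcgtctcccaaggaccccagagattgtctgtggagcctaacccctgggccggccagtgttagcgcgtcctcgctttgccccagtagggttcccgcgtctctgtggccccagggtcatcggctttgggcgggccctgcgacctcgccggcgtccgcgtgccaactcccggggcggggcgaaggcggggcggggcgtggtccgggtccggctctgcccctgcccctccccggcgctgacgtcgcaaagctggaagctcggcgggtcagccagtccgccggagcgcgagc

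Of the 14 windows that the table held for 9 of the clock genes, 4 windows of 3 genes held an E-box, namely Per1, Cry1 and both windows of Tef. An E-box was found in 7.15% of all 32851 windows of the same length. The Arntl window shown held the single ROR half-site, 30 bases after the start, against 6.45% of all windows with one. Hlf alone of the 9 held a cyclic AMP element, 9 bases before its start, against 1.79% of all windows. No D-box was found in the 14 windows, against 1.06% of all windows, and the Dbp and Usp2 windows shown held none of the 4 motifs. These are matches of letters within short windows and say nothing of binding.

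**Figure D1:**
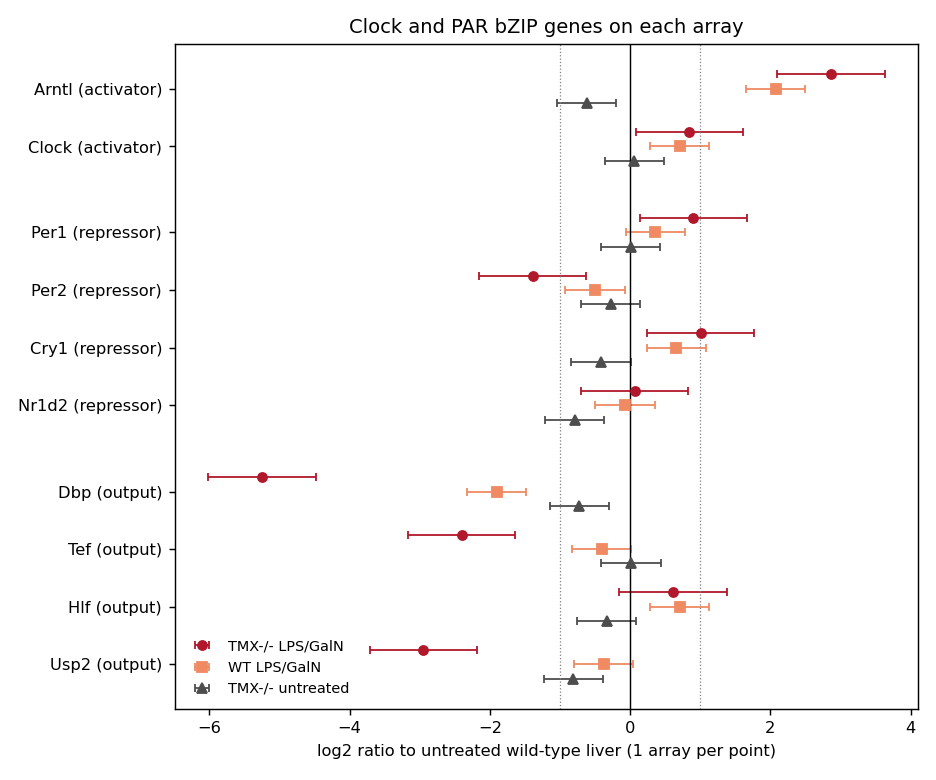
Log2 ratio to untreated wild-type liver (horizontal axis) of the 10 genes, with 1 point for each of the 3 arrays and bars of 1 SD of a single probe. Dotted lines mark 2-fold. After LPS/GalN, Arntl lies right of the 2-fold line in both genotypes and Dbp lies left of it in both, while no gene passes 2-fold in untreated TMX-/- liver.

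Arntl was higher and Dbp lower after LPS/GalN in both genotypes. Arntl, the activator without which the mouse clock stops, stood at 2.87 in TMX-/- LPS/GalN liver, 2.07 in WT LPS/GalN liver and -0.62 in untreated TMX-/- liver. Dbp, the output gene with the widest daily swing of the family, stood at -5.25, -1.90 and -0.73 in the same livers. Both treated livers thus had high Arntl and low Dbp, and the untreated TMX-/- liver lay on the low side of untreated WT liver for both genes. Treatment and the time of day at which each liver was taken, which is not given, cannot be told apart in these ratios. The gap between the Arntl and Dbp ratios was 8.11 in TMX-/- LPS/GalN liver and 3.97 in WT LPS/GalN liver, and 0.11 in untreated TMX-/- liver.

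In WT liver, LPS/GalN was compared with no treatment on 1 array. Of the 10 genes, 1 was at least 2-fold higher and 1 at least 2-fold lower, where 2.80% and 1.75% of all measured genes were. The higher one was Arntl, 4.21-fold above untreated WT liver, 4.92 times the SD of a single probe and the 10th highest ratio of 10179. The lower one was Dbp, at 3.73-fold below, 4.51 probe SDs and the 18th lowest ratio. CLOCK's gene, the partner of Arntl, stood at 0.71, Cry1 at 0.66 and Hlf at 0.71, each between 1.57 and 1.68 probe SDs. Per1 (0.36), Tef (-0.40), Usp2 (-0.38) and Nr1d2 (-0.07) lay within 1 probe SD of 0, and Per2 (-0.50) lay just beyond it. The difference was therefore carried by Arntl and Dbp, with smaller ratios for the rest.

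The reference channel enters every value of that array. Set against untreated TMX-/- liver instead, so that the reference cancels if it was the same preparation, WT LPS/GalN liver stood at 2.69 for Arntl and -1.17 for Dbp. Cry1 (1.08) and Hlf (1.04) were also past 2-fold there, giving 3 genes higher and 1 lower, where 2.08% and 1.98% of all genes were. Usp2 stood at 0.43 in that comparison, against -0.38 with the untreated WT reference.

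In untreated liver, TMX-/- was compared with WT on 1 array. None of the 10 genes was 2-fold different, where 1.78% of all genes were higher and 0.835% lower, and 7 of the 10 lay below 0. Usp2 (-0.81), Nr1d2 (-0.79), Dbp (-0.73) and Arntl (-0.62) were the lowest, at 1.92, 1.87, 1.72 and 1.47 probe SDs. Cry1 (-0.42), Hlf (-0.33) and Per2 (-0.28) were within 1 probe SD of 0. Clock (0.06), Tef (0.01) and Per1 (0.01) stood at the level of untreated WT liver. The medians of the activators, repressors and output genes were -0.28, -0.35 and -0.53. With arrays scaled to the same spread, Usp2 (-1.29), Nr1d2 (-1.25) and Dbp (-1.16) were 2-fold lower, as were 4.52% of all genes under that scaling. The second Nr1d2 probe stood at 0.12 without that scaling.

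**Figure D2:**
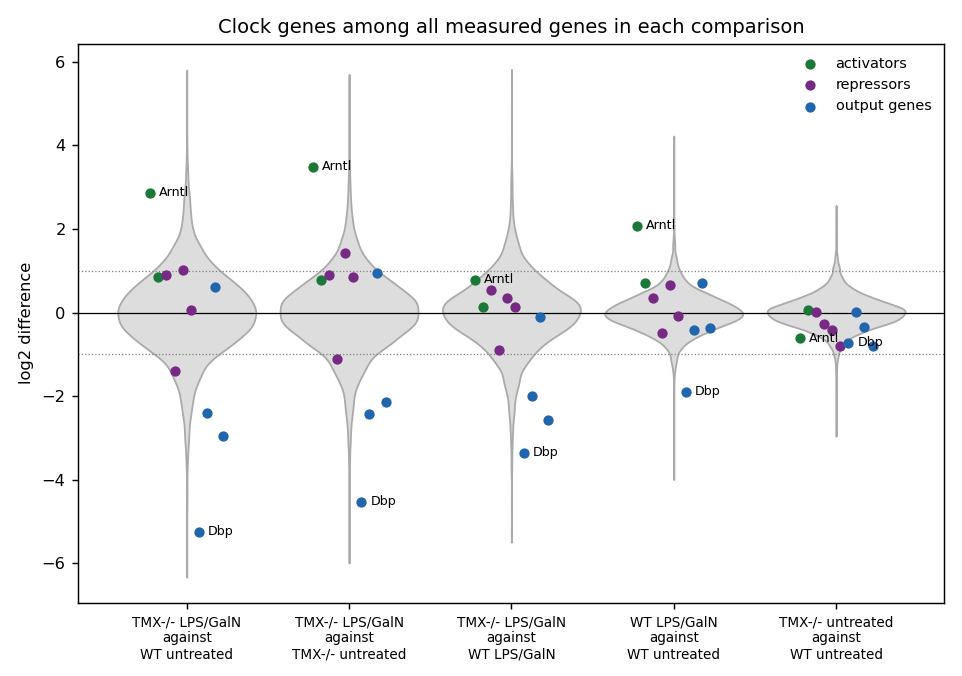
Log2 difference (vertical axis) of the 10 genes in each of 5 comparisons, coloured by role, over grey outlines of the distribution of all 10179 measured genes. Dotted lines mark 2-fold. Dbp is the lowest and Arntl the highest of the 10 genes in each of the 4 comparisons that involve a treated liver.

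In TMX-/- LPS/GalN liver, set against untreated WT liver, 2 of the 10 genes were 2-fold higher, with 13.6% of all genes, and 4 were 2-fold lower, with 13.2% of all genes. The activators had a median of 1.86, the repressors of 0.48 and the output genes of -2.68, while the median gene stood at 0. Arntl was 7.29-fold higher and ranked 78th from the top. Cry1, a strong repressor of the ARNTL and CLOCK dimer, was at the threshold with 1.01, which is 1.32 probe SDs. Dbp was 38.0-fold lower and had the 4th lowest ratio of all genes, at 6.87 probe SDs. Usp2, a clock-controlled deubiquitinase gene, stood at -2.95, Tef at -2.40 and Per2, a PERIOD repressor, at -1.39. Clock (0.85), Per1 (0.90), Hlf (0.61) and Nr1d2 (0.07) did not pass 2-fold. With arrays scaled to the same spread, Cry1 (0.62) and Per2 (-0.86) also fell short of it.

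Hepatocyte markers were low on the same array. Of 9 hepatocyte markers with a value, 6 were 2-fold lower in TMX-/- LPS/GalN liver, 3 in WT LPS/GalN liver and 0 in untreated TMX-/- liver, and none was higher. Their ratios ran from -4.47 to -0.14, from -1.54 to 0.68 and from -0.96 to 0.26 in these livers. Dbp lay below the lowest of them, Cyp2e1, on the 2 arrays of treated liver. Of 10 macrophage markers, 9, 8 and 3 were 2-fold higher on the 3 arrays. Their ratios ran from 0.03 to 4.10, from 0.68 to 3.13 and from 0.37 to 1.30. Among the 10179 measured genes, 13.6% passed 2-fold upward and 13.2% downward on the TMX-/- LPS/GalN array. These shares were 2.80% and 1.75% for WT LPS/GalN liver, and 1.78% and 0.835% for untreated TMX-/- liver. In TMX-/- LPS/GalN liver, 2 of 3 monocyte, 2 of 4 neutrophil, 3 of 5 T and NK cell, 1 of 2 B cell, 2 of 4 endothelial, 3 of 4 stellate and 1 of 4 cholangiocyte markers with a value were 2-fold higher, and 1 neutrophil marker was 2-fold lower. In bulk liver, fewer cells of a type and less RNA per cell cannot be told apart. The part of cell composition in the clock gene ratios was not tested.

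The response to LPS/GalN within TMX-/- liver was the difference between treated and untreated TMX-/- liver, in which the reference cancels if it was the same preparation on both arrays. Arntl was 11.2-fold higher at 3.48, the 14th highest of all genes, and Cry1 stood at 1.42. Dbp was 23.0-fold lower at -4.52, the 3rd lowest, and Tef (-2.42), Usp2 (-2.14) and Per2 (-1.11) were also 2-fold lower. These 2 higher and 4 lower genes compare with 11.4% and 12.1% of all genes. Hlf stood at 0.94, Per1 at 0.89, Nr1d2 at 0.86 and Clock at 0.79, all of them higher by 1.18 to 1.41 probe SDs. With arrays scaled to the same spread, Usp2 (-0.54) and Per2 (-0.41) were no longer past 2-fold, and Nr1d2 (1.29) was. Under that scaling 6.56% of all genes were 2-fold higher and 7.39% lower.

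**Figure D3:**
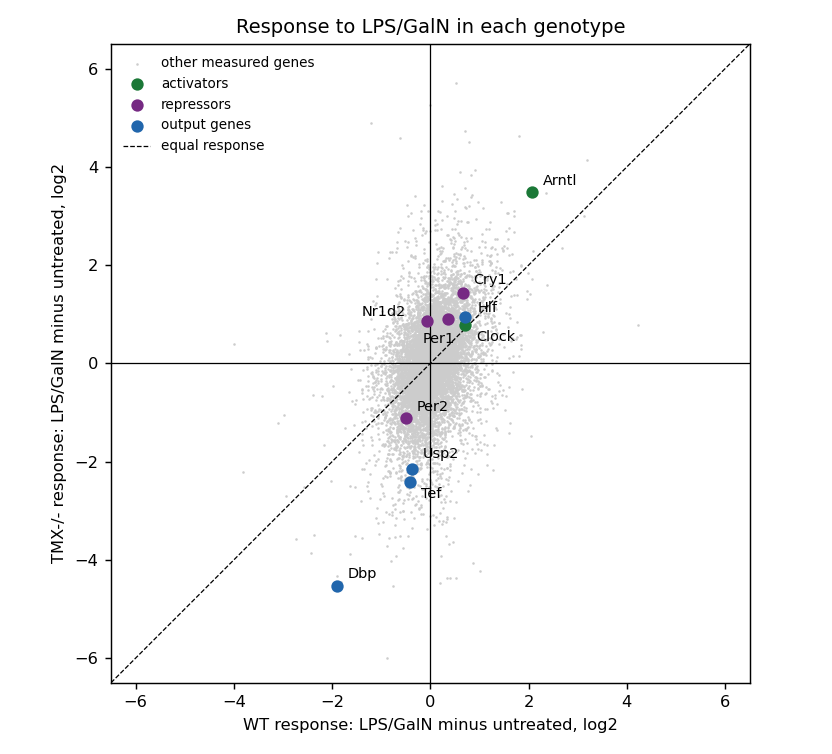
Response to LPS/GalN in WT liver (horizontal axis) and in TMX-/- liver (vertical axis) as log2 differences. Coloured points are the 10 genes by role, grey points the other measured genes and the dashed line equal responses. Arntl lies far to the upper right, Dbp far to the lower left, and Tef and Usp2 lie low on the vertical axis alone.

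The WT and TMX-/- responses share no control liver, since one was measured against untreated WT and the other against untreated TMX-/- liver. Of the 10 genes, 9 had the same sign in both, as did 63.4% of all genes, and Nr1d2 (0.86 in TMX-/- liver, -0.07 in WT liver) was the exception. A second Nr1d2 probe, blank on the TMX-/- LPS/GalN array, stood at 0.46 in WT LPS/GalN liver, so that the sign in WT liver depends on the probe. In untreated TMX-/- liver the second probe stood at 0.12 where the other stood at -0.79, so the TMX-/- response rests on 1 probe. All 10 genes had the larger response in TMX-/- liver, as did 70.7% of all genes. The TMX-/- response also takes in the untreated TMX-/- ratio, which lay below 0 for 7 of the 10. Hlf had ratios of 0.61 in TMX-/- LPS/GalN, 0.71 in WT LPS/GalN and -0.33 in untreated TMX-/- liver. Nr1d2 had ratios of 0.07, -0.07 and -0.79 in the same order. For Hlf and Nr1d2 the larger response thus depends on the untreated TMX-/- ratio. The difference of the responses (TMX-/- minus WT) was past 2-fold on the high side for 1 of the 10 genes, Arntl, with 9.82% of all genes, and on the low side for 3, Dbp, Tef and Usp2, with 11.6% of all genes. For part of the genes this order of sizes depended on the unequal spread of the arrays. With all arrays scaled to the same spread, that difference was -0.00 for Arntl instead of 1.41, and 0.43 for Dbp instead of -2.62. For Tef it was -0.97 instead of -2.01. Under that scaling the response stayed larger in TMX-/- liver for Tef, Cry1, Nr1d2, Per1 and Usp2. It was larger in WT liver for Clock, Per2, Dbp and Hlf, and Arntl stood at 2.75 in both.

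After LPS/GalN, TMX-/- liver was compared with WT liver directly, and 3 of the 4 output genes were the only ones of the 10 past 2-fold. Dbp stood at -3.35, Usp2 at -2.57 and Tef at -2.00, at 5.68, 4.36 and 3.38 probe SDs, and 10.6% of all genes were 2-fold lower. None of the 10 genes was 2-fold higher, where 9.64% of all genes were. Hlf stood at -0.10, so that the 3 PAR bZIP genes did not share a ratio. Arntl (0.79) and Clock (0.14), the activators, and Per2 (-0.89), Per1 (0.55), Cry1 (0.35) and Nr1d2 (0.14), the repressors, were all short of 2-fold. With arrays scaled to the same spread, Usp2 (-1.32) alone stayed past 2-fold, where 5.31% of all genes were lower. Tef then stood at -0.95 and Dbp at -0.72, and Arntl (-0.98), Clock (-0.42) and Cry1 (-0.25) turned to the low side.

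Genes of the same class also differed from each other. Within the PAR bZIP family, Hlf stood above Dbp by 5.86 in TMX-/- LPS/GalN liver and by 2.61 in WT LPS/GalN liver, and by 0.39 in untreated TMX-/- liver. It stood above Tef by 3.01 and 1.11 in the 2 treated livers, and below it by a difference of -0.35 in untreated TMX-/- liver. Among the PERIOD genes, Per1, which many stimuli induce directly, stood above Per2 by 2.29, 0.86 and 0.29 on the TMX-/- LPS/GalN, WT LPS/GalN and untreated TMX-/- arrays. Arntl stood above Clock, whose RNA varies little over the day in liver, by 2.02 and 1.36 in the 2 treated livers. In untreated TMX-/- liver that gap was -0.68.

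The genes closest to Arntl over the 3 ratios were Tcte3, Spon2 and Tubb2a, at Euclidean distances of 0.42, 0.75 and 0.79 log2. Those closest to Dbp were Serpina6, the gene of corticosteroid-binding globulin, at 0.14, the ornithine aminotransferase gene Oat at 0.78 and the cytochrome P450 gene Cyp2e1 at 0.88. Serpina6 stood at -5.15 in TMX-/- LPS/GalN liver, -1.91 in WT LPS/GalN liver and -0.83 in untreated TMX-/- liver. With 3 values per gene these distances are descriptions only.

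Other genes of the clock machinery passed 2-fold at shares near those of all genes in TMX-/- LPS/GalN liver. Of a list of 26, 16 had a value on all arrays, 5 on some, 2 were blank throughout and 3 were not named in the annotation. In TMX-/- LPS/GalN liver 3 of 18 measured were 2-fold higher and 2 lower, in WT LPS/GalN liver 2 and 2 of 19, and in untreated TMX-/- liver 1 and 1 of 19. All genes were higher and lower at 13.6% and 13.2%, 2.80% and 1.75%, and 1.78% and 0.835% on these arrays, which also apply to the lists that follow. The medians were -0.01, -0.13 and -0.13. Ciart, a repressor of the ARNTL and CLOCK dimer, stood at -1.77 in TMX-/- LPS/GalN liver, -1.46 in WT LPS/GalN liver and 0.04 in untreated TMX-/- liver. It was low in both treated livers, as Dbp was. Gsk3b, a kinase of clock proteins, stood at 1.45, 1.18 and 0.50 in that order, and Fbxl21, which encodes a CRY ubiquitin ligase subunit, at -1.49, -1.28 and -0.83.

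Timeless, which in mammals acts mainly at replication forks, stood at 1.46 in TMX-/- LPS/GalN liver, -0.67 in WT LPS/GalN liver and -1.01 in untreated TMX-/- liver. Csnk1e, a kinase that marks PER proteins for degradation, stood at 1.09, 0.17 and -0.12, and Btrc, a ubiquitin ligase subunit for PER, at -0.73, -0.51 and 0.43. Npas2, which can replace CLOCK, stood at 0.92 in TMX-/- LPS/GalN liver and 1.41 in untreated TMX-/- liver and was blank on the WT LPS/GalN array. Crem, a cyclic AMP responsive factor gene, had a value only in WT LPS/GalN liver, at 1.23. Nr1d1 and Per3, singled out after their values were seen because they belong to the core loop, were blank on the TMX-/- LPS/GalN array. Nr1d1 stood at -0.30 in WT LPS/GalN liver and -0.69 in untreated TMX-/- liver, and Per3 at -0.19 and -0.28. Of all named genes with values on those 2 arrays, 4.88% were blank on the TMX-/- LPS/GalN array, and the rule behind blank cells is not given in the sources used here.

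**Figure D4:**
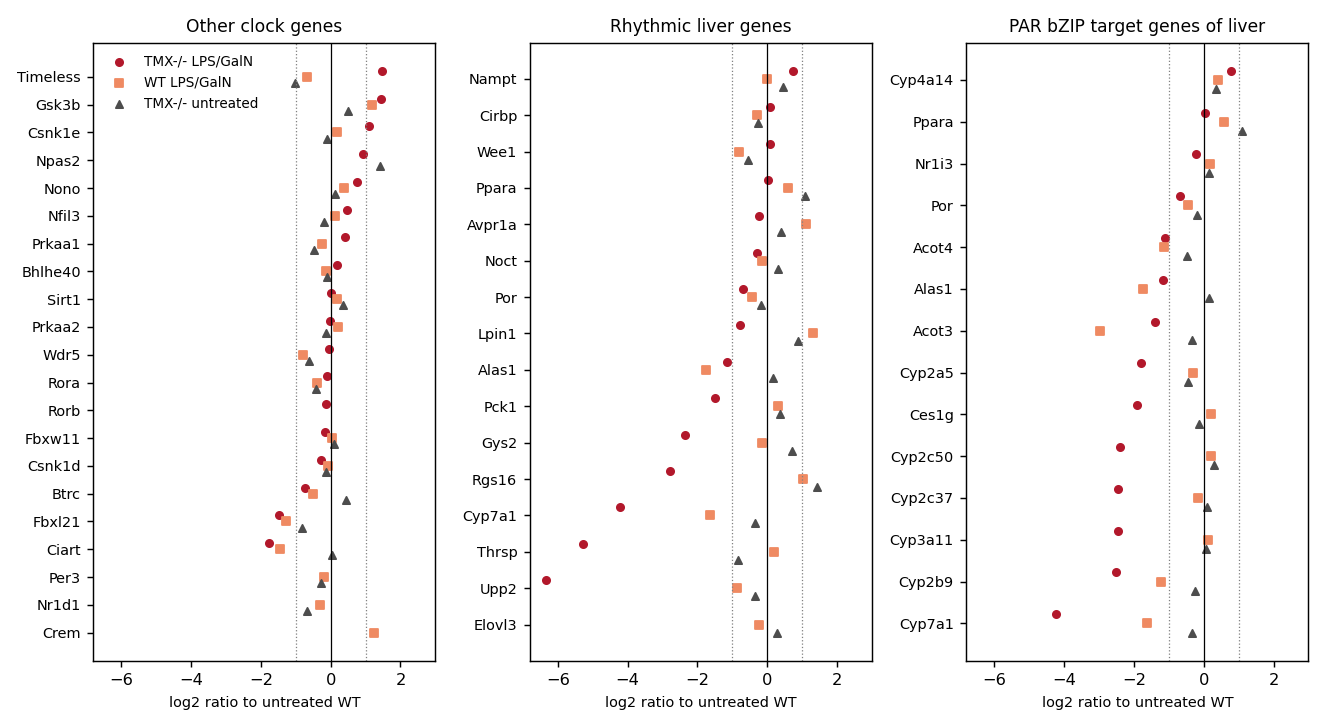
Log2 ratio to untreated wild-type liver (horizontal axis) of other clock genes, of genes with daily rhythms in liver and of PAR bZIP target genes, with 1 point per array and no point where a cell was blank. Dotted lines mark 2-fold. The red points of TMX-/- LPS/GalN liver spread far to the left for rhythmic and PAR bZIP target genes, and the other 2 arrays mostly stay within 2-fold.

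Part of a list of genes known for daily rhythms in liver was lower in TMX-/- LPS/GalN liver. Of 15 measured there, 7 were 2-fold lower, against 13.2% of all genes, and none was 2-fold higher. Their median was -0.78, and 4 of the 15 lay above 0. In WT LPS/GalN liver 2 of 16 were lower and 3 higher (median -0.16), against 1.75% and 2.80% of all genes, and in untreated TMX-/- liver 0 were lower and 2 higher (median 0.30). Upp2, a liver uridine phosphorylase, stood at -6.33, -0.88 and -0.34 in TMX-/- LPS/GalN, WT LPS/GalN and untreated TMX-/- liver. Rgs16, a regulator of G protein signalling, stood at -2.79, 1.02 and 1.43, and Lpin1, a phosphatidate phosphatase gene, at -0.78, 1.30 and 0.88. Both were high in WT LPS/GalN and untreated TMX-/- liver and low in TMX-/- LPS/GalN liver. Gys2, the liver glycogen synthase, stood at -2.37, -0.16 and 0.70, and Pck1, an enzyme of gluconeogenesis, at -1.50, 0.31 and 0.36. Thrsp, a lipogenic regulator, stood at -5.29, 0.20 and -0.83. Alas1, the first enzyme of haem synthesis, was low in both treated livers, at -1.15 in TMX-/- LPS/GalN and -1.74 in WT LPS/GalN liver, and stood at 0.16 in untreated TMX-/- liver.

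Most of a list of genes that depend on PAR bZIP factors in mouse liver were lower in TMX-/- LPS/GalN liver. The list shares Ppara, Por, Alas1 and Cyp7a1 with the rhythmic genes, so the lists are not separate observations. Of 14 measured, 10 were 2-fold lower, against 13.2% of all genes, and none higher, with a median of -1.61, where the 9 hepatocyte markers had a median of -1.82. In WT LPS/GalN liver 5 of 14 were lower, against 1.75% of all genes, and none higher (median -0.24), and in untreated TMX-/- liver 0 were lower and 1 was higher, Ppara at 1.09, named here after its value was seen (median -0.03). Cyp7a1, whose enzyme starts the main route from cholesterol to bile acids, stood at -4.22, -1.64 and -0.34 in TMX-/- LPS/GalN, WT LPS/GalN and untreated TMX-/- liver. The drug-metabolising genes Cyp3a11 (-2.46), Cyp2c37 (-2.45) and Cyp2c50 (-2.40) were low in TMX-/- LPS/GalN liver. In WT LPS/GalN liver they stood at 0.14, -0.17 and 0.21. Cyp2b9 stood at -2.50 in TMX-/- LPS/GalN and -1.22 in WT LPS/GalN liver, and Cyp2a5 at -1.81 and -0.32. Ces1g, a carboxylesterase gene, stood at -1.90 and 0.19 in the same 2 livers. Acot3, an acyl-CoA thioesterase gene, was lower in WT LPS/GalN liver (-2.99) than in TMX-/- LPS/GalN liver (-1.41). Several Cyp2 genes have close copies that probes may not separate.

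Glucocorticoids reset the liver clock and induce Per1, so known glucocorticoid-induced genes were set beside it. Of 10 measured, Per1 included, 3 were 2-fold higher and 3 lower in TMX-/- LPS/GalN liver, 2 higher and 0 lower in WT LPS/GalN liver, and none either way in untreated TMX-/- liver. Of all genes, 13.6% were higher and 13.2% lower in TMX-/- LPS/GalN liver. Pck1 is also on the rhythmic list and Tat among the hepatocyte markers. Their medians were 0.36, 0.33 and 0.21. Dusp1, a phosphatase of MAP kinases, stood at 2.41 in TMX-/- LPS/GalN liver, 1.47 in WT LPS/GalN liver and 0.06 in untreated TMX-/- liver. Sgk1, a kinase gene, stood at 1.86, 0.27 and 0.31, and the metallothionein gene Mt2 at 1.64, 0.42 and 0.86. Tsc22d3, the leucine zipper gene GILZ, stood at 0.07, 1.41 and 0.51. Tat, tyrosine aminotransferase, stood at -1.82, 0.68 and 0.26, and Klf9, a Krüppel-like factor gene, at -1.27, 0.00 and -0.08. The list held members on both sides in TMX-/- LPS/GalN liver, and Per1 at 0.90 lay above 0 but short of 2-fold.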

How the data were processed

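Liver RNA was amplified, dye-coupled and hybridised to 3 arrays with 2 channels, with untreated WT RNA in Cy5 and the other liver in Cy3, per the labels' protocols. The dyes were thus not swapped, and a dye effect on a gene cannot be told apart from its ratio to untreated WT liver. The authors' deposited values are log ratios, taken as log2. Their base, numerator, background correction and normalization, and why cells are blank, are not stated in the labels or the table. Medians of the deposited log2 values were within 0.000114 of 0, and the values ran from -6.40 to 8.04. GEO's platform annotation named 16631 of 23473 rows (0 with several symbols, 6842 unnamed here), and 3947 symbols were updated through RefSeq synonyms of GRCm38.p6.

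Probes with values on all arrays were averaged per gene, and each array was centred on its median over 10179 genes. Differences between arrays gave the other comparisons. No test could be made on 1 array per group, and precision is limited by how few arrays there are. The calculation was tested on simulated data with changes well past 2-fold and noise below the probe SD. That checked the arithmetic and does not bear on calls near 2-fold. Python 3.11.15 and pandas 2.3.3 were used. The clock genes and the lists were chosen with earlier results of these data known. Genes of the other lists were named if 2-fold in any of 5 comparisons, at most 8 per list by size in TMX-/- LPS/GalN liver. The closing section gives the alternatives tried.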

Additional observations from a re-analysis of the deposited data

Results flagged for a closer look

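The 10 clock genes and the genes named from the other lists by the rule on 2-fold differences were searched for opposite signs in 2 groups under the same contrast. None of these differences was tested, since each group had 1 array. Values are log2 differences.

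The response to LPS/GalN had opposite signs in TMX-/- and WT liver for 12 of the genes searched, with the TMX-/- value given before the WT value. They were Nr1d2 (0.86 and -0.07), Timeless (2.47 and -0.67), Rgs16 (-4.22 and 1.02), Lpin1 (-1.67 and 1.30), Tat (-2.08 and 0.68), Tsc22d3 (-0.44 and 1.41), Pck1 (-1.86 and 0.31), Thrsp (-4.47 and 0.20), Cyp2c50 (-2.68 and 0.21), Cyp3a11 (-2.52 and 0.14), Ces1g (-1.78 and 0.19) and Klf9 (-1.20 and 0.00). Both values exceeded the SD of a single probe for Timeless, Rgs16, Lpin1 and Tat of these. The Nr1d2 values rest on 1 probe, and the second Nr1d2 probe stood at 0.46 in WT LPS/GalN liver. Over all 59 clock and listed genes with a value on every array, 23 had opposite signs (39.0%, against 36.5% of all 10179 genes). Both values were past the probe SD for 5 of the 59 (8.47%, against 3.04% of all genes), the fifth being Ppara (-1.05 and 0.59).

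TMX-/- liver differed from WT liver in opposite directions with and without LPS/GalN for 18 of the genes searched, with the treated value given before the untreated value. Among the clock genes these were Arntl (0.79 and -0.62), Tef (-2.00 and 0.01), Cry1 (0.35 and -0.42) and Nr1d2 (0.14 and -0.79). Other clock genes were Timeless (2.13 and -1.01), Csnk1e (0.91 and -0.12), Ciart (-0.31 and 0.04) and Btrc (-0.22 and 0.43). Among rhythmic, PAR bZIP target and glucocorticoid-induced genes were Rgs16 (-3.81 and 1.43), Gys2 (-2.21 and 0.70), Lpin1 (-2.09 and 0.88), Pck1 (-1.82 and 0.36), Cyp2c50 (-2.61 and 0.29), Cyp3a11 (-2.59 and 0.06), Cyp2c37 (-2.28 and 0.11), Acot3 (1.58 and -0.35), Tat (-2.50 and 0.26) and Tsc22d3 (-1.35 and 0.51). Both values exceeded the SD of a single probe for Arntl, Timeless, Rgs16, Gys2, Lpin1 and Tsc22d3 of these. Over all 59 genes, 33 had opposite signs (55.9%, against 42.3% of all genes). Both values were past the probe SD for 9 of the 59 (15.3%, against 3.51% of all genes). The others of these were Wee1 (0.90 and -0.54), Wdr5 (0.74 and -0.63) and Prkaa1 (0.66 and -0.48). With arrays scaled to the same spread, Arntl stood at -0.98 in both and Cry1 at -0.25 and -0.66, so neither kept opposite signs. Tef (-0.95 and 0.02) and Nr1d2 (0.14 and -1.25) kept them. The Nr1d2 values rest on 1 probe, and the second Nr1d2 probe stood at 0.12 in untreated TMX-/- liver without that scaling.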

How the results depend on the processing

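Of 17 calls of a clock gene at 2-fold over the 5 comparisons, 16 were kept with no further centring and with centring over all rows. Each of these left 1 gene 2-fold higher in TMX-/- LPS/GalN against untreated WT liver, since Cry1 fell short. All 17 were kept with the probe of smallest ratio and with every probe averaged per array (an alternative chosen after seeing the data). Neither setting could lose a call, since only Nr1d2 had a second probe and none of the 17 calls was of Nr1d2. A natural logarithm could not lose one either, since it only lowers the threshold for the same values.

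With arrays scaled to the same spread, 11 calls were kept and 4 gained. The lower genes were then 3 in untreated TMX-/- against untreated WT liver, 2 in TMX-/- LPS/GalN against untreated TMX-/- liver, 1 in TMX-/- LPS/GalN against WT LPS/GalN liver and 0 in the difference of responses, and 1 gene was higher in TMX-/- LPS/GalN against untreated WT liver. With that scaling, 4.52%, 7.39%, 5.31% and 12.6% of all genes were lower in the same order, and 4.97% were higher in the last comparison. Activators had medians of 1.85 in WT LPS/GalN liver against untreated WT liver and -0.70 in TMX-/- against WT liver after LPS/GalN. Output genes had medians of -1.65, -1.02 and -0.83 in TMX-/- LPS/GalN liver against untreated WT, untreated TMX-/- and WT LPS/GalN liver. Tmx1 stood at -2.40 in TMX-/- LPS/GalN and -4.70 in untreated TMX-/- liver. Signs turned in the difference of responses for Arntl (-0.0013), Dbp (0.43), Cyp2a5 (0.010), Cyp2b9 (0.47) and Cyp7a1 (0.11), and for Cyp2b9 in TMX-/- against WT liver after LPS/GalN (0.071).

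Read as natural logarithms, 13 calls were gained. The higher genes were then 3 in WT LPS/GalN against untreated WT liver, 4 and 6 in TMX-/- LPS/GalN against untreated WT and untreated TMX-/- liver, 1 in TMX-/- against WT liver after LPS/GalN and 3 in the difference of responses. Of all genes, 7.07%, 21.9%, 19.4%, 17.6% and 17.7% were higher in the same order. The lower genes in untreated TMX-/- liver were 3, where 3.44% of all genes were lower. Activator medians became 2.01 in WT LPS/GalN liver and 2.68 and 3.08 in TMX-/- LPS/GalN against untreated WT and untreated TMX-/- liver. Output medians became -3.86, -3.29 and -3.30 in TMX-/- LPS/GalN liver against untreated WT, untreated TMX-/- and WT LPS/GalN liver. Tmx1 became -5.60 in TMX-/- LPS/GalN and -4.27 in untreated TMX-/- liver. With untreated TMX-/- liver in place of the reference, 3 clock genes were higher in WT LPS/GalN liver. No paired analysis was possible because each group had 1 array. The table holds no signal, so dim probes cannot be told from bright ones.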
